A study of Mus musculus with 32 samples.

Results

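Glutathione and antioxidant defence genes were described across the 8 genotype and diet groups of a mouse intestinal stem cell data set. They were taken as the rows of the deposited count table whose Ensembl identifiers carry 1 of 40 listed symbols. All 40 were found among 54418 genes, and 29 of them were among the 5872 genes that passed a filter on low counts and could be tested.

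The cells were GFP-Hi intestinal stem cells of C57BL6 mice, isolated from crypts by flow cytometry after staining for the epithelial surface protein CD326 and with the dye DAPI. Polyadenylated RNA was counted by 3'DGE, a method that samples each transcript at its 3' end. The 4 genotypes were Wildtype (WT), Ppard-fl/fl (PparD), Ppara-null (PparA) and Ppard-fl/fl with Ppara-null (PparDA), each fed a control or a high-fat diet, with 4 libraries a group. Ppara and Ppard encode nuclear receptors that are activated by fatty acids, and the series text calls the mutant groups knockouts. How the floxed Ppard allele was recombined, the driver of GFP, the ages of the mice, the length of the diet and whether each library came from its own animal are details that the sources used here do not give. The p-values therefore measure the spread between libraries. By their sex-linked transcripts, given below, every group held libraries of both sexes, so each group spans at least 2 animals, and part of the spread may be technical.

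Glutathione is a small thiol that is made in the cytosol, is joined to reactive compounds by glutathione transferases, and is used by glutathione peroxidases to remove peroxides. Peroxiredoxins and catalase also remove peroxides, superoxide dismutases produce hydrogen peroxide from superoxide, and NADPH from the pentose phosphate pathway keeps glutathione and thioredoxin in their reduced forms. The transcription factor NRF2 induces many of these genes through the antioxidant response element, and in the intestine they handle compounds from food and peroxides formed during fatty acid oxidation.

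The libraries held 612672 to 724155 counts and 11683 to 12212 detected genes. Levels are in CPM, counts per 1e+06 counts of the library's total after multiplying that total by edgeR's TMM scaling factor (0.942 to 1.07). On this scale 1 count was worth 1.34 to 1.65 CPM. The targeted genes came first. Ppara had 0 to 5 counts per library and Ppard 0 to 7, with overlapping ranges in all genotypes, so neither gene could check the labels. The stem cell markers Lgr5 (28 to 64.3 CPM) and Olfm4 (7080 to 13020 CPM) were present in every library. Leukocyte markers summed to at most 24.3 CPM and red blood cell markers to at most 9.9 CPM. Enterocyte, Paneth and goblet markers were present and varied, with sums of 1451 to 6874, 2097 to 44330 and 1392 to 7724 CPM. By the library numbers in the table's column names there were 4 runs of 8 libraries, with 1 library of each group in every run. Runs 1 and 3 had 308 to 635 Xist counts and 0 Ddx3y counts per library, whereas runs 2 and 4 had 0 to 6 Xist counts and 10 to 26 Ddx3y counts. Xist is a transcript of female cells and Ddx3y a gene of the Y chromosome, so sex and run number cannot be told apart between these pairs of runs.

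The 3 genes that passed the test for the Ppara-null genotype averaged over diets were Gsta1, Sod1 and Cat. As these are the genes the genotype results turn on, the 250 bases before their annotated starts are printed (RefSeq, GRCm38.p6, 5' to 3' on the gene's strand), with matches to the core antioxidant response element, TGACNNNGC, or to the PPAR hexamer AGGTCA in capitals, both searched on either strand. Gsta1 lies on the plus strand (chr9:78230419-78230668), Sod1 on the plus strand (chr16:90220512-90220761) and Cat on the minus strand (chr2:103485154-103485403).
Gsta1: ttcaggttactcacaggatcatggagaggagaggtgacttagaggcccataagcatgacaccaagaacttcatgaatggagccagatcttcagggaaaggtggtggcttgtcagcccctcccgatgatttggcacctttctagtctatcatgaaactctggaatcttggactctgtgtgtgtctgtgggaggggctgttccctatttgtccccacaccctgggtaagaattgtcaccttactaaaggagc
Sod1: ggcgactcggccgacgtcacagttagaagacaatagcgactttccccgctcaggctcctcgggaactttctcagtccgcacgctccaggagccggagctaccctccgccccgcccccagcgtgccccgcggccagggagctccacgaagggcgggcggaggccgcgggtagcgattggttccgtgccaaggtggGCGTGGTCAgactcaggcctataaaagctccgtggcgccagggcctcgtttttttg
Cat: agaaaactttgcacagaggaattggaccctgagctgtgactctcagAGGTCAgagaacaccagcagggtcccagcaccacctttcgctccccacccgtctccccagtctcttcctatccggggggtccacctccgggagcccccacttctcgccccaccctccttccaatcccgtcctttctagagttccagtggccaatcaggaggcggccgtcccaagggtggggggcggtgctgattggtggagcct
The Gsta1 stretch held neither motif. The Sod1 stretch held 1 match to the antioxidant element, at bases -56 to -48 from the start and on the reverse strand, and the Cat stretch held 1 AGGTCA at bases -204 to -199. A match describes letters only. Over windows of 250 bases before to 50 after the start, RefSeq entries existed for 35 of the 40 genes. TGACNNNGC was found in 10 of their 44 windows (22.7%), against 12.4% of all 32851 windows of that length. These 10 windows belonged to Gclm, Gsta3, Gstm5, Mgst1, Prdx1, Txnrd1, Srxn1, Sod1, G6pdx and Pgd. AGGTCA, which can lie within the other motifs, was found in 15.9% of the windows, against 16.3% of all. The direct repeat of this hexamer with 1 base between the copies was in 0 of the 44, against 0.04% of all.

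The genes differed in how many of each role could be measured. Glutathione transferases, which join glutathione to other compounds, passed the filter for 12 of 15, and peroxidases and the thioredoxin system for 6 of 8. Superoxide dismutases and catalase passed for 3 of 3, and enzymes of the pentose phosphate pathway for 4 of 4. Of the NRF2-induced detoxification genes 3 of 5 passed, and of the genes for glutathione synthesis and recycling only Gss, glutathione synthetase, 1 of 5. The 11 genes below the filter were Hmox1, Cbr3, Gclc, Gclm, Gsr, Slc7a11, Gsta2, Gsta3, Gstm4, Gpx4 and Srxn1. Gclc and Gclm, the catalytic and modifier subunits of the rate-limiting ligase of glutathione synthesis, had 1 to 8 and 0 to 12 counts per library. Hmox1, Cbr3 and Gsta2 had no more than 1 count in any library. The 11 genes were not tested.

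Low counts of Gpx4, the peroxidase that reduces lipid peroxides, went with shared sequence. Of the 31-base words in the last 300 bases of its transcripts 90.2% also occur in the pseudogene Gpx4-ps2, and the table gives 2039 counts to Gpx4-ps2 and 158 to Gpx4. The sum of both lay between 89.1 ± 13.6 (SD, n = 4) CPM in PparDA on control diet and 125 ± 20.8 CPM in PparD on high-fat diet, and passed the test in no comparison. Gsta1 (90.4% of words shared, mostly with Gm3776, which had 79 counts against 1083) and Gstp1 (82.1%, with Gstp2, 157 counts against 15821) are also uncertain in this way. Adding the counts of the near copies changed no call.

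Levels of most tested genes were close across the 8 groups. The ratio of the highest to the lowest group mean was below 1.5 for 16 of 29 genes and below 2 for 25 of 29. Prdx1, a cytosolic peroxiredoxin, moved least, with group means from 4652 ± 337 (SD, n = 4) CPM in PparD on control diet to 5063 ± 156 CPM in PparA on high-fat diet. Taldo1, the pentose phosphate enzyme transaldolase, ranged from 1180 ± 97.5 to 1338 ± 113 CPM. Mgst1 and Mgst3, membrane-bound glutathione transferases of the microsomes, ranged over groups from 723 to 916 CPM and from 642 to 748 CPM. Gstm1, a mu-class transferase, ranged from 87.1 to 109 CPM. Nqo1, the quinone reductase that is a standard NRF2 target, was low, with group means of 7.66 to 15.1 CPM and 4.02 to 29.2 CPM over single libraries. Ratios above 2 were seen for Gsta1 (18.4), Txn1 (3.11), Gsta4 (2.51) and Sod1 (2.05). The spread within groups, as a pooled coefficient of variation, ran from 5.95% for Prdx1 to 154% for Gsta1, with a median of 20.4%.

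Gsta1, an alpha-class glutathione transferase (ENSMUSG00000074183), showed the largest difference with genotype among the 29 genes. Over the 16 Ppara-null libraries its level ran from 0 to 421 CPM with a median of 64.2 CPM, and over the 16 others from 0 to 48.8 CPM with a median of 10.1 CPM. In WT on control diet the 4 libraries, in the order of runs 1 to 4, read 0, 14.6, 4.54 and 11.4 CPM, and on high-fat diet 44.4, 48.8, 2.83 and 4.26 CPM. The WT libraries were thus low, with 2 higher values on high-fat diet. In PparD the values were 8.71, 7.24, 16.2 and 5.59 CPM on control diet and 14.4, 11.6, 22.6 and 5.72 CPM on high-fat diet, within the WT range. In PparDA they were 60.3, 14.7, 61.1 and 100.4 CPM on control diet and 150.6, 17.2, 102.3 and 67.4 CPM on high-fat diet. Of these 8 libraries, 6 lay above every WT and PparD library, and the 2 of run 2 did not.

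PparA libraries fell into separate levels for Gsta1. On control diet they read 3.03, 176, 0 and 143 CPM in runs 1 to 4, and on high-fat diet 5.82, 421, 0 and 134 CPM. The 4 libraries of runs 1 and 3 held at most 4 counts and lay within the WT range, and the 4 of runs 2 and 4 lay above every WT and PparD library. Averaged over Ppard genotype and diet, Gsta1 was 6.84-fold higher with Ppara-null (log2 fold change 2.78 ± 0.58 SE, edgeR quasi-likelihood test, Benjamini-Hochberg adjusted p = 0.0019). Within runs 1 and 3 alone the log2 fold change was 0.43 (adjusted p = 0.93), and within runs 2 and 4 alone it was 3.1 (adjusted p = 0.00091). The 0.43 averaged 2 genotypes that differed in runs 1 and 3. On control diet in those runs, the log2 fold change against WT was 4.71 in PparDA and -0.44 in PparA. With all 4 runs but without any 1 library, the averaged Ppara-null value stayed between 2.38 and 2.91, with adjusted p of at most 0.0062.

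**Figure D1:**
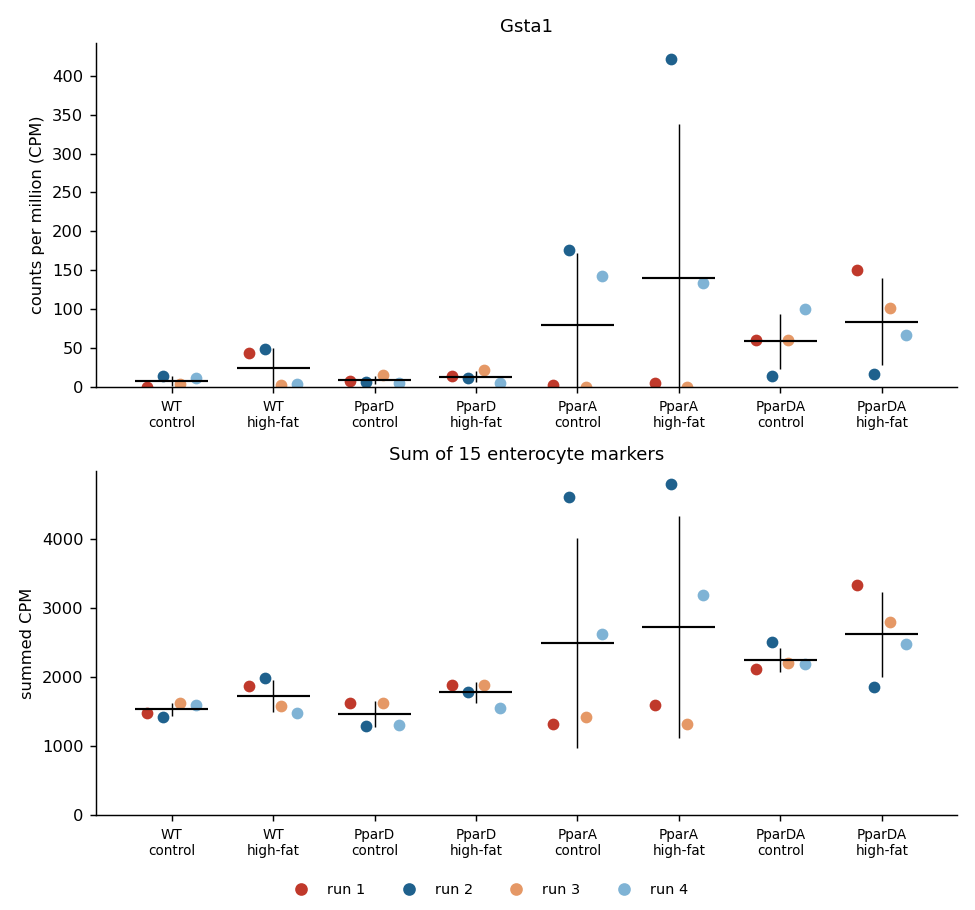
Top, Gsta1 in CPM in each of 32 libraries by group, coloured by run of library numbers; bottom, the summed CPM of 15 enterocyte markers (Fabp1 left out) in the same libraries. Horizontal lines are group means and vertical lines 1 SD, stopped at 0. The PparA libraries of runs 2 and 4 are above 134 CPM for Gsta1 and at 2635 CPM or more for the markers, and those of runs 1 and 3 are at 5.82 CPM or less and at 1603 CPM or less.

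The PparDA minus PparA difference of Gsta1 went in opposite directions between the pairs of runs. It was 5.22 ± 0.92 (log2, SE) in runs 1 and 3 and -2.1 ± 0.53 in runs 2 and 4. The comparison of the run pairs was chosen after these values were seen, so it is a description and has no p. Gsta4, an alpha-class transferase that acts on products of lipid peroxidation, read 6.06, 32.4, 6.26 and 18.6 CPM in PparA on control diet and 7.27, 27.5, 3.21 and 30.8 CPM on high-fat diet, so that here too runs 2 and 4 were high and did not overlap runs 1 and 3. Its PparDA minus PparA difference was 1.56 ± 0.47 in runs 1 and 3 and -1.18 ± 0.38 in runs 2 and 4. Gsta4 reached the filter's minimum of 10 counts in 9 Ppara-null libraries and in 2 others, and so passed through the libraries where it was high.

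Enterocyte and Paneth cell markers were both higher in the same PparA libraries. With Fabp1 left out, the 15 markers summed to 2635 to 4805 CPM in the 4 PparA libraries of runs 2 and 4 and to 1317 to 1603 CPM in those of runs 1 and 3. WT libraries held 1426 to 1989 CPM, PparD libraries 1298 to 1890 CPM and PparDA libraries 1867 to 3341 CPM. With all 16 markers the PparA sums were 3133 to 6874 CPM in runs 2 and 4 and 1459 to 1902 CPM in runs 1 and 3. WT, PparD and PparDA then reached 4147, 2517 and 4436 CPM. The gap between WT and the PparA libraries of runs 2 and 4 thus depended on leaving Fabp1 out. The 10 Paneth cell markers, genes of granule proteins and other products of the neighbours of stem cells in the crypt, summed to 15040 to 37800 CPM in the PparA libraries of runs 2 and 4 and to 2888 to 7662 CPM in those of runs 1 and 3. They also reached 44330 CPM in WT, 16170 CPM in PparD and 40900 CPM in PparDA. Goblet cell sums (2458 to 5913 against 2324 to 5267 CPM) and stem cell sums (9973 to 14350 against 10320 to 12420 CPM) overlapped between the same PparA libraries. All 16 enterocyte markers were detected in every group, and 9 of the 10 Paneth cell markers, all but Pla2g2a, in every library. The part of either cell type in the Gsta1 and Gsta4 differences was not tested, and in RNA from pooled sorted cells more cells of a type and more RNA per cell cannot be told apart. The PparDA library with the lowest enterocyte marker sum, on high-fat diet in run 2, also had a low Gsta1 level (17.2 CPM), whereas the control diet library of run 2 had 14.7 CPM with an enterocyte marker sum of 2507 CPM.

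Sod1, the copper and zinc superoxide dismutase of the cytosol (ENSMUSG00000022982), rose with Ppara-null. It read 18.8, 23.3, 42.4 and 12.9 CPM in WT on control diet and 21.5, 29.6, 21.2 and 28.4 CPM in WT on high-fat diet, in the order of runs 1 to 4. In PparA it read 28.8, 29.4, 18.8 and 37.1 CPM on control diet and 36.4, 63.2, 20.9 and 59.9 CPM on high-fat diet. In PparDA it read 27.2, 45.5, 27.5 and 26.3 CPM on control diet and 64.1, 31.3, 40.3 and 42.9 CPM on high-fat diet. In PparD it read 18.86, 27.49, 20.64 and 20.95 CPM on control diet and 20.21, 15.98, 25.42 and 32.87 CPM on high-fat diet. The highest values were in the high-fat groups of both Ppara-null genotypes. On that diet PparDA did not overlap WT but overlapped PparD, and PparA overlapped WT. Sod1 had 9 to 40 counts per library. Over the 16 Ppara-null libraries the median was 33.8 CPM, against 21.4 CPM in the 16 others, and the log2 fold change was 0.63 ± 0.16 (1.54-fold, edgeR adjusted p = 0.013). In runs 1 and 3 alone it was 0.44 (adjusted p = 0.47) and in runs 2 and 4 alone 0.79 (adjusted p = 0.018). Each of these fits held fewer libraries, and the 2 values were not tested against each other. In PparA the Sod1 values were 18.8 to 36.4 CPM in runs 1 and 3 and 29.4 to 63.2 CPM in runs 2 and 4, the libraries with higher sums of both enterocyte and Paneth cell markers, whose part was not tested.

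Cat, catalase, which breaks down hydrogen peroxide in peroxisomes (ENSMUSG00000027187), fell on average with Ppara-null, though not in PparA on control diet, where its mean of 133.5 ± 22.7 CPM (SD, n = 4) was close to the 132.7 ± 25.5 CPM of WT. In WT it read 112.5, 124, 124.2 and 170 CPM on control diet and 164.8, 147.8, 182.4 and 161.7 CPM on high-fat diet. In PparDA it read 137.3, 113, 134.4 and 120.1 CPM on control diet and 133, 81.3, 105.4 and 75 CPM on high-fat diet. On high-fat diet every PparDA library was thus below every WT library, and on control diet the groups overlapped. The difference on high-fat diet was -0.74 ± 0.18 (log2, SE; 0.601-fold, edgeR adjusted p = 0.023), and Cat was the 1 gene of 29 called in that comparison, against 1.57% of all genes, with 0.63% called lower. The call ended without PparDA library 16 or 32 or without WT library 2, 18 or 25 (adjusted p of 0.0082 to 0.1 over all 8 left-out libraries).

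In PparA on control diet Cat read 127.2, 132.8, 164.2 and 109.9 CPM, overlapping WT. On high-fat diet Cat in PparA read 110.5, 110.2, 163.9 and 110.1 CPM in runs 1 to 4, so that 3 libraries lay below every WT library and the library of run 3 was among them. In PparD the values on that diet were 186.2, 140.9, 163.8 and 138.6 CPM, overlapping WT. Averaged over Ppard genotype and diet, Cat was 0.807-fold with Ppara-null (log2 fold change -0.31 ± 0.09, adjusted p = 0.024). It was -0.18 (adjusted p = 0.62) in runs 1 and 3 and -0.44 (adjusted p = 0.022) in runs 2 and 4. Again each fit held fewer libraries, and the difference between the 2 values was not tested. The high-fat response of Cat in PparDA was lower than that in WT by a log2 difference of -0.66 ± 0.25, which did not pass (adjusted p = 0.68).

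**Figure D2:**
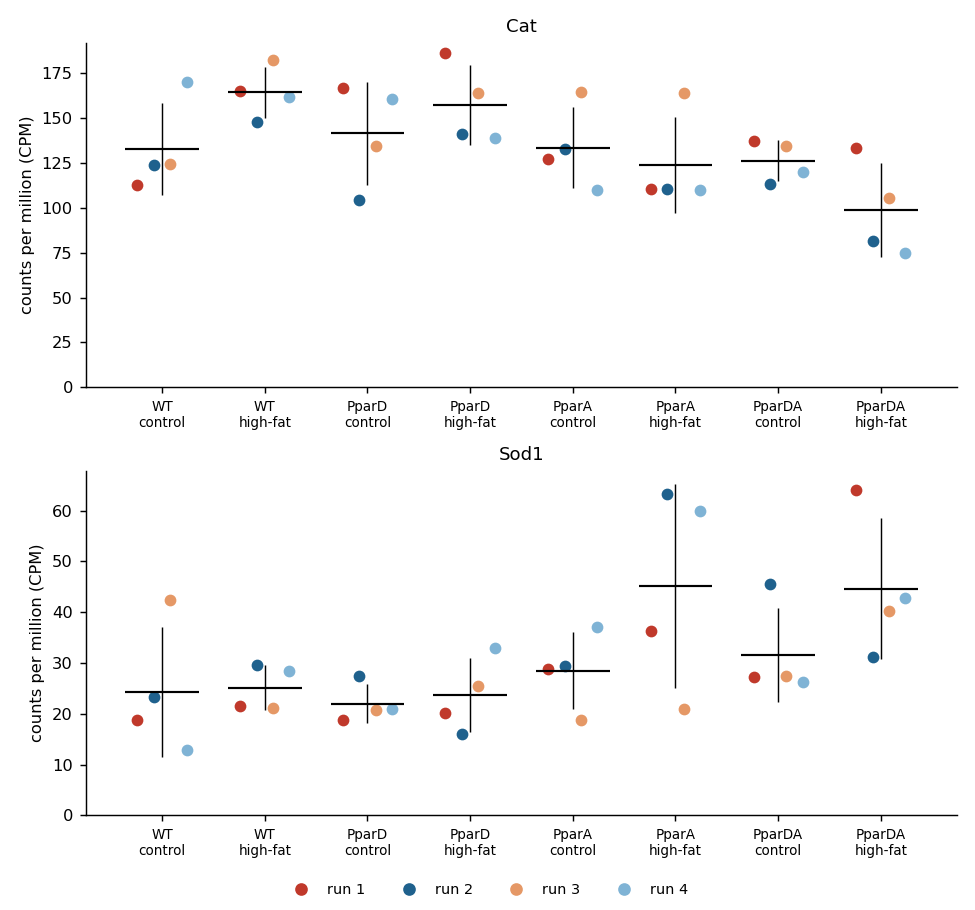
Cat and Sod1 in CPM in each of 32 libraries by group, coloured by run of library numbers, with group means (horizontal lines) and 1 SD (vertical lines). Cat in PparDA on high-fat diet (75 to 133 CPM) lies below WT on high-fat diet (147.8 to 182.4 CPM), and Sod1 is highest in the high-fat groups of PparA and PparDA.

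In the averaged Ppara-null comparison 3 of 29 genes were called, 2 higher and 1 lower, against 7.54% of all genes tested (4.39% higher and 3.15% lower). The median log2 fold change over the 29 genes was 0.03, and over all tested genes -0.0014. The 26 other genes lay between -0.33 and 0.75. With only runs 1 and 3 no gene of the 29 was called, with 72 calls over all genes. Without library 16, of PparDA on high-fat diet, 5 were called. That count stands without the share of all genes called in the same fit, and is no result about these genes as a group. In the single comparisons with WT on control diet, 0 of 29 genes were called in PparD (0.204% of all genes), PparA (0.562%) and PparDA (1.87%), by edgeR and by DESeq2 alike. At an unadjusted edgeR p under 0.05 there were 3, 2 and 3 genes, against 7.71, 8.89 and 13.8% of all genes. The genes with the smallest p were Gstp1 in PparD (0.29 ± 0.11, adjusted p = 0.44), Gsta1 in PparA (3.39 ± 1.25, adjusted p = 0.35) and Gstm3 in PparDA (0.59 ± 0.18, adjusted p = 0.11).

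**Figure D3:**
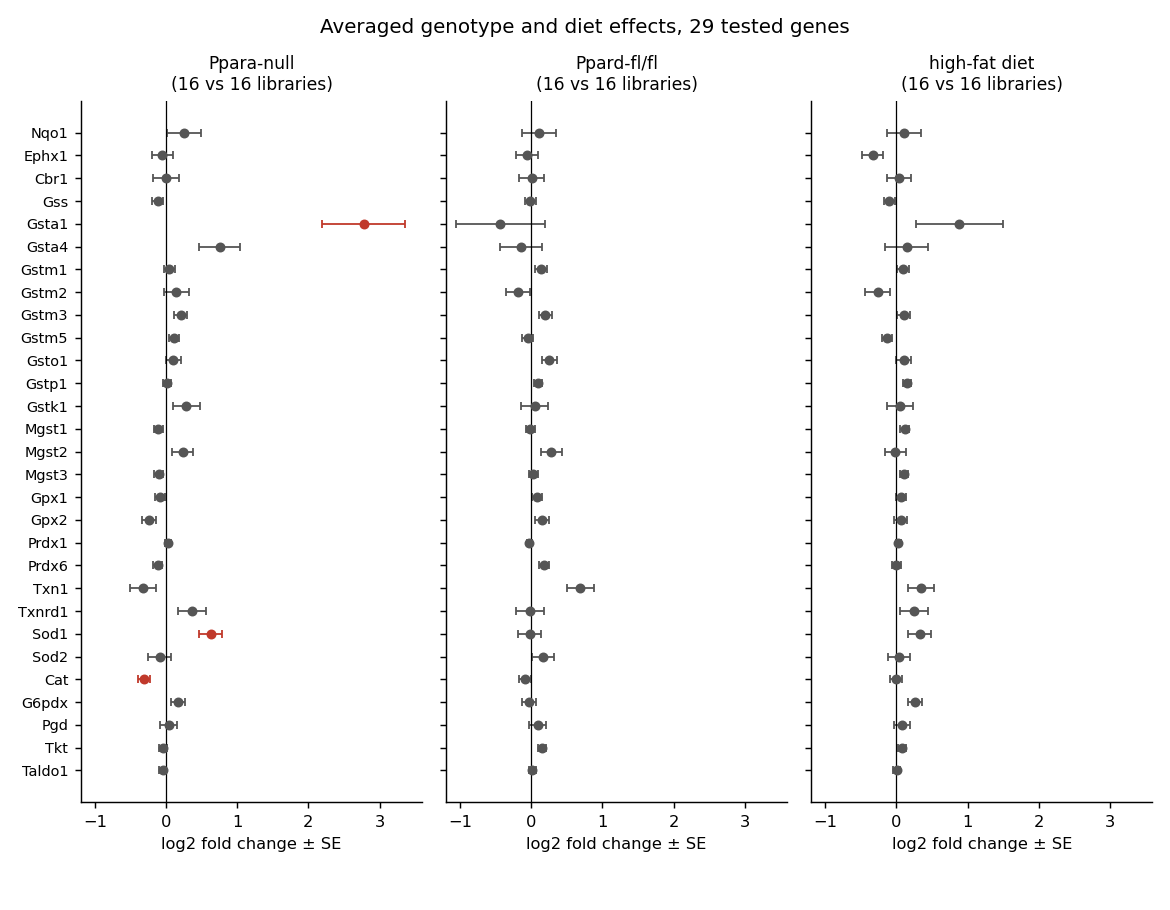
Log2 fold changes with standard errors of the 29 tested genes for Ppara-null, Ppard-fl/fl and high-fat diet, each averaged over the other factors. Red points passed the adjusted p threshold of 0.05: Gsta1 (2.78), Sod1 (0.63) and Cat (-0.31) for Ppara-null, and no gene in the other panels. The edgeR fit shown had no term for run.

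On high-fat diet 0 of 29 genes were called in PparD against WT (0.017% of all genes) and in PparA against WT (0.749%), by edgeR and DESeq2. At an unadjusted edgeR p under 0.05 there were 0 and 6 genes, against 3.78 and 11.7% of all genes. In PparA the smallest p-values belonged to Prdx6, Txn1 and Sod1. Prdx6, a peroxiredoxin that can use glutathione to reduce phospholipid peroxides, read 458.6, 665.1, 502.1 and 522 CPM in WT and 421.8, 421.2, 401.6 and 359.6 CPM in PparA. All PparA values were below all WT values, with a log2 fold change of -0.42 ± 0.13 that did not pass (adjusted p = 0.14). Txn1, the cytosolic thioredoxin, read 2117, 5112, 1809 and 1804 CPM in WT and 1571, 1366, 1094 and 931.3 CPM in PparA, without overlap (-1.13 ± 0.38, adjusted p = 0.18). In all, 4 of 29 genes had ranges that did not overlap in this comparison, against 6.4% of all genes.

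Txn1 was the gene with the smallest p for the Ppard-fl/fl genotype. Over the 16 Ppard-fl/fl libraries it ran from 1197 to 5151 CPM with a median of 2786 CPM, and over the 16 others from 931.3 to 5112 CPM with a median of 1574 CPM. In PparD it read 2329, 4260, 3014 and 1197 CPM on control diet and 5151, 4589, 3131 and 2558 CPM on high-fat diet, in the order of runs 1 to 4. The ranges overlapped widely. The averaged log2 fold change was 0.69 ± 0.19, which did not pass in edgeR (adjusted p = 0.063) and did in DESeq2 (0.68, adjusted p = 0.038). In runs 1 and 3 alone it was 0.91 (adjusted p = 0.0057) and in runs 2 and 4 alone 0.53 (adjusted p = 0.6). The difference between these 2 values, from fits with fewer libraries, was not tested. The call appeared without library 10, 23, 24, 26, 27 or 29 (adjusted p of 0.012 to 0.049). Prdx6 (0.18 ± 0.07, adjusted p = 0.2) and Tkt, the pentose phosphate enzyme transketolase (0.15 ± 0.06, adjusted p = 0.23), came next. In edgeR without a term for run, 0 of 29 genes were called for Ppard-fl/fl, against 0.954% of all genes. At an unadjusted p under 0.05 there were 5, against 12.3% of all genes. With run as a factor edgeR called Txn1 (0.65, adjusted p = 0.011), in a fit that called 2.45% of all genes.

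High-fat diet moved none of the 29 genes past the threshold. In WT 0 of 29 were called (0.102% of all genes), in PparD 0 (0.0851%), in PparA 0 (0.136%), in PparDA 0 (0.0341%) and averaged over genotypes 0 (0.324%), by edgeR and by DESeq2. At an unadjusted p under 0.05 there were 4, 0, 3, 2 and 3 genes, against 7.66, 4.99, 5.79, 8.79 and 9.03% of all genes. On simulated counts with the same libraries, the test in WT recovered 16% of 1.5-fold changes, 50% of 2-fold and 92% of 4-fold changes. The median log2 fold change of the 29 genes was between 0.06 and 0.08 in all 5, against values between -0.0066 and -0.002 over all tested genes.

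Gstp1, the pi-class glutathione transferase, had the smallest p for diet in WT. It read 531.8, 650.4, 608.7 and 674.3 CPM on control diet and 785.4, 906, 796.2 and 703.5 CPM on high-fat diet, so that every high-fat library was above every control library. The log2 fold change of 0.37 ± 0.11 did not pass (adjusted p = 0.35). In the other genotypes the control and high-fat values of Gstp1 overlapped, with means of 753 ± 100.1 and 769 ± 58.9 CPM in PparD, 738 ± 49.9 and 702 ± 39.6 CPM in PparA, and 689 ± 88.8 and 825 ± 90.4 CPM in PparDA (SD, n = 4). Averaged over genotypes it was 0.15 ± 0.05 (adjusted p = 0.37). G6pdx, glucose-6-phosphate dehydrogenase, the first enzyme of the pentose phosphate pathway, averaged 0.26 ± 0.10 (adjusted p = 0.39), and Ephx1, the microsomal epoxide hydrolase, -0.33 ± 0.15 (adjusted p = 0.5).

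Txn1, with Gstp1 and Prdx6, also had the smallest p-values for a diet response that differed between PparA and WT. Txn1 in WT on control diet read 1244, 1479, 1048 and 1920 CPM, and the first 3 of these lay below every high-fat library given above. In PparA on control diet it read 1577, 2329, 1253 and 3026 CPM, and the high-fat values were on average lower. The diet response in PparA minus that in WT was -1.65 ± 0.53 for Txn1 (adjusted p = 0.36), -0.62 ± 0.19 for Prdx6 (adjusted p = 0.36) and -0.45 ± 0.15 for Gstp1 (adjusted p = 0.43), all on the log2 scale. None passed: 0 of 29 genes were called in this comparison (0.153% of all genes), 0 for PparD minus WT (0.0511%) and 0 for PparDA minus WT (0%), by edgeR and DESeq2. At an unadjusted edgeR p under 0.05 there were 3, 1 and 2 genes, against 8.14, 3.61 and 5.76% of all genes.

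**Figure D4:**
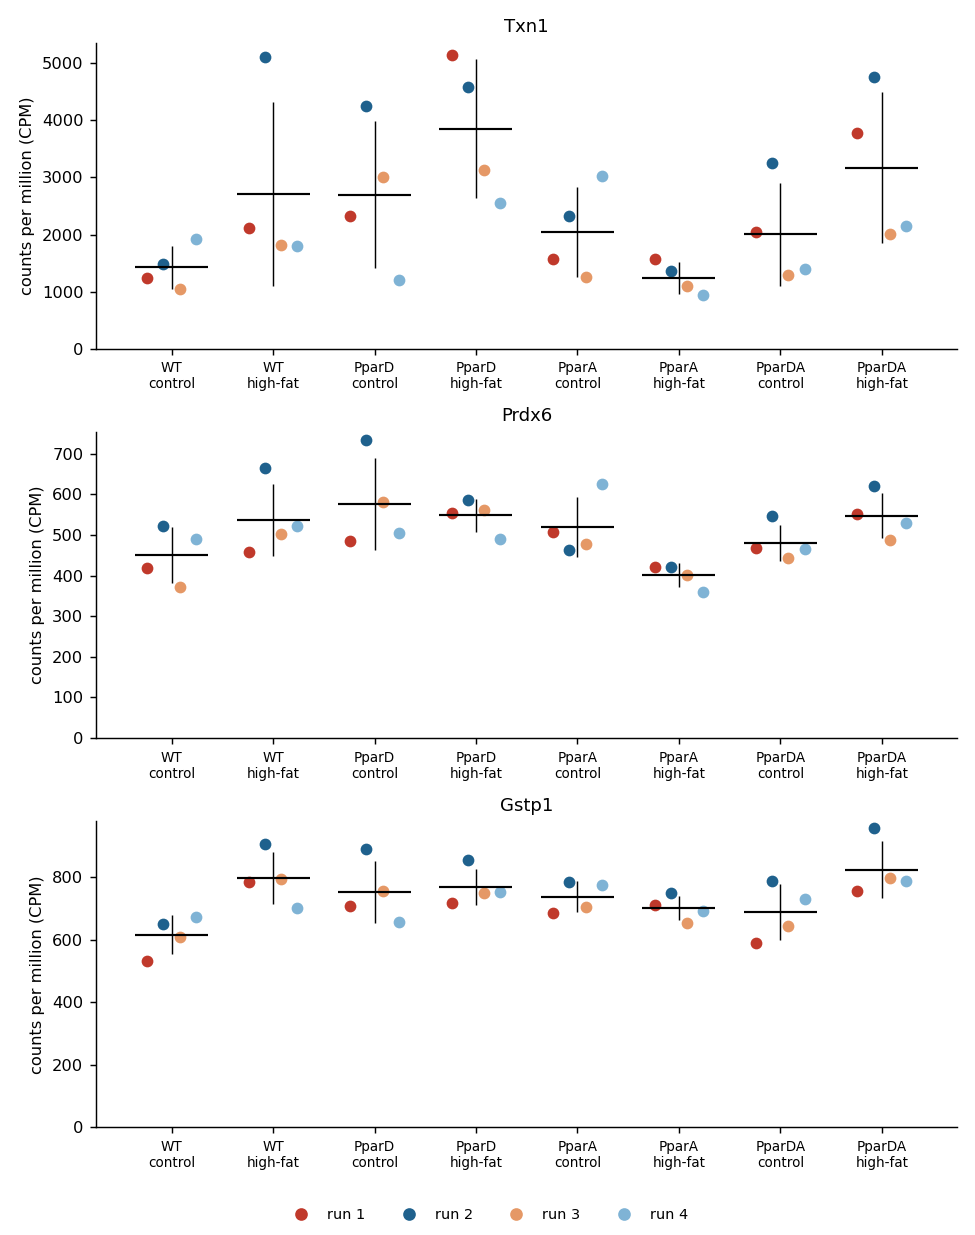
Txn1, Prdx6 and Gstp1 in CPM in each of 32 libraries by group, coloured by run of library numbers, with group means (horizontal lines) and 1 SD (vertical lines). Means are higher on high-fat than on control diet in WT and lower in PparA for all 3 genes, and none of the differences passed the test.

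The run of library numbers separated 5 of the 29 genes, against 5.3% of all genes, in an edgeR F test across the 4 runs with group in the model. Gpx2, the glutathione peroxidase typical of gut epithelium, had means of 763 ± 62.2, 1102 ± 312, 784 ± 117.5 and 864 ± 118.2 CPM in runs 1 to 4 (SD, n = 8, adjusted p = 0.0017). Gstm2, a mu-class transferase, had 73.1 ± 18.1, 43.7 ± 10.5, 85.7 ± 17.3 and 58.1 ± 20.8 CPM (adjusted p = 0.0024). Ephx1 had 41 ± 7.81, 29.2 ± 7.16, 52.8 ± 12.8 and 37 ± 10.6 CPM (adjusted p = 0.0032). Gstm2 and Ephx1 thus had lower means in runs 2 and 4, the runs with Ddx3y counts, than in runs 1 and 3.

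Gstp1 (686 ± 84.6, 823 ± 99, 714 ± 72.3 and 722 ± 47.5 CPM, adjusted p = 0.017) and Txn1 (2476 ± 1326, 3394 ± 1509, 1832 ± 836 and 1874 ± 702 CPM, adjusted p = 0.025) had their highest means in run 2, as Gpx2 did. Without library 11, of PparD on control diet in run 2, the calls of Gstp1 (adjusted p = 0.055) and Txn1 (0.067) in this F test ended. The Txn1 call also ended without library 10 (0.087), 15 (0.064) or 16 (0.057), each of run 2. Gpx2 read 1676 CPM in library 11, the highest of all 32.

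**Figure D5:**
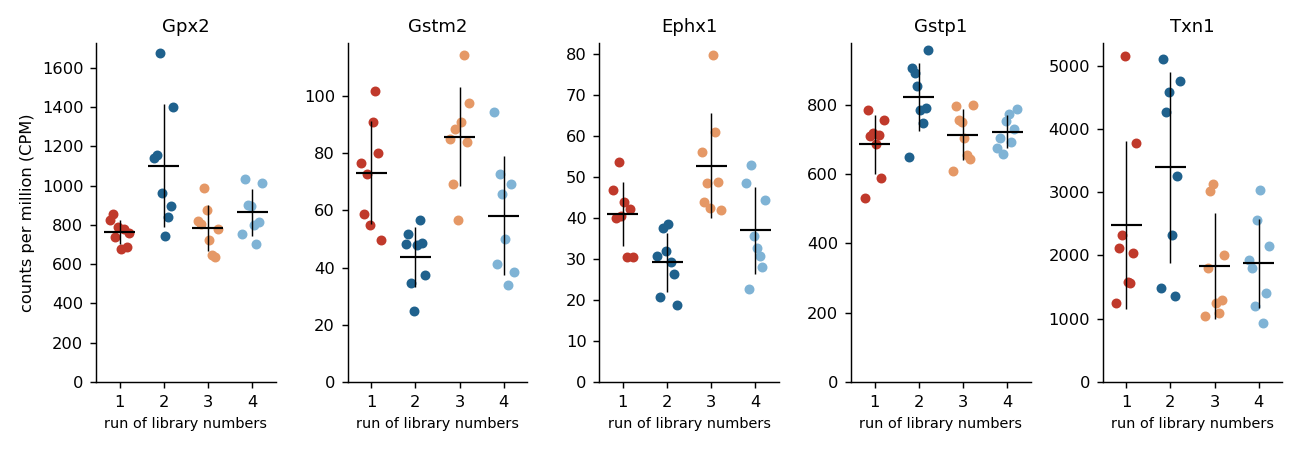
Gpx2, Gstm2, Ephx1, Gstp1 and Txn1 in CPM by run of library numbers, 8 libraries a run, with means (horizontal lines) and 1 SD (vertical lines). Gstm2 and Ephx1 means are lower in runs 2 and 4, and Gpx2, Gstp1 and Txn1 means are highest in run 2.

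Other genes of the same pathways were counted from a list of 90, of which 53 passed the filter. In the averaged Ppara-null comparison 6 of these 53 were called higher and 1 lower, against 4.39% and 3.15% of all genes, and 0 were called in each comparison of diet and each comparison of a mutant with WT. Those with the smallest p were Selenop, a secreted carrier of selenium (log2 fold change 1.35 ± 0.26, edgeR adjusted p = 0.00063), Akr1c13, an aldo-keto reductase (0.29 ± 0.07, adjusted p = 0.0046), and Ces2e, a carboxylesterase (0.70 ± 0.17, adjusted p = 0.0061). Selenop had group means of 94.6 to 168 CPM without Ppara-null and 308 to 415 CPM with it, and its libraries in PparA on control diet ran from 155.9 to 1004 CPM. Another called gene, Anpep, an aminopeptidase named here after its values were seen, is also among the enterocyte markers. For Ppard-fl/fl averaged over Ppara genotype and diet, 1 of 53 was called, against 0.954% of all genes, Ftl1, a ferritin light chain (0.55 ± 0.12, adjusted p = 0.018). Across runs 2 of 53 were called, against 5.3% of all genes, Ftl1 (adjusted p = 0.0084) and Blvrb, a biliverdin reductase (adjusted p = 0.04). Of 9 regulators of the NRF2 pathway 2 passed the filter, and neither was called in any comparison.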

How the data were processed

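The submitters' processing notes list R 4.0.2, edgeR 3.30.2 and Salmon 1.1.0 with mm10 as the genome build, and give no roles. The deposited values are expected counts, estimated per gene and library and rounded to whole numbers by the authors. The annotation release and any molecular identifiers are not stated in these sources. Counts near 3' ends are not scaled to gene length. Levels of different genes were set side by side only to choose and describe genes, and no test compared them. CPM is per 1e+06 counts of a library's total multiplied by its TMM factor.

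Counts of all 32 libraries were fitted in edgeR 4.0.16 (R 4.3.3, TMM, quasi-likelihood, 1 coefficient per group) after its filter (minimum count 10, total 15). Tests were two-sided, and p-values were adjusted by Benjamini-Hochberg over 5872 genes within each comparison. A call is an adjusted p under 0.05. Standard errors were the log2 fold change over the root of F. The biological coefficient of variation common to all genes was 21.7%. The fit was tested on simulated counts. DESeq2 1.42.0, other scaling and filtering, run as a factor, pairs of runs and left-out libraries were alternatives. Genes were named if called, or if among the 3 smallest p-values of a comparison, with levels of the 8 most abundant and of some key genes, and at most 3 called genes of the wider list. Members, lists and rules were chosen with earlier results of these data known. Test values of single genes in pairs of runs and the sums of near-identical copies were added after seeing the values. Reads may repeat a molecule, and the standard errors measure the spread between libraries.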

Additional observations from a re-analysis of the deposited data

Results flagged for a closer look

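In 13 of 232 groups of 4 libraries (5.6%), 1 library stood apart from the other 3 by Dixon's criterion of 0.829, which chance alone meets in about 1 of 20 groups. Library 22, of PparA on high-fat diet, stood apart for 3 genes: it was high for Ephx1 (61.05 CPM, the others 29.16 to 30.77) and Cat (163.9 CPM, the others 110.1 to 110.5), and low for Taldo1 (1035 CPM, the others 1223 to 1239). Library 15, of PparDA on control diet, was high for Sod1 (45.48 CPM, the others 26.33 to 27.48) and low for Mgst1 (644.1 CPM, the others 834.3 to 856.5). Library 10, of WT on high-fat diet, was high for Txn1 (5112 CPM, the others 1804 to 2117).

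Nqo1 was high in library 29 of PparA on control diet (19.97 CPM, the others 10.95 to 12.36) and low in library 19 of PparD on control diet (5.898 CPM, the others 13.97 to 14.51). Cbr1, a carbonyl reductase, was high in library 31 of PparDA on control diet (21.39 CPM, the others 16.14 to 16.79). In PparD on control diet, Mgst3 was low in library 27 (602 CPM, the others 764 to 788.8) and Gpx1, the cytosolic glutathione peroxidase, was high in library 3 (271.3 CPM, the others 203.5 to 205.5). Taldo1 was high in library 26 of WT on control diet (1379 CPM, the others 1179 to 1205) and low in library 2 of WT on high-fat diet (1277 CPM, the others 1316 to 1324).

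The PparDA minus PparA difference, averaged over diet, went in opposite directions between runs 2 and 4 and runs 1 and 3. The difference between the run pairs was -7.32 ± 1.06 (log2, SE) for Gsta1 and -2.74 ± 0.60 for Gsta4. This contrast was picked after these values were seen, so it describes them and no p is given. All 4 PparDA libraries of runs 1 and 3 were above the 4 PparA libraries of those runs for Gsta1, and all 4 of runs 2 and 4 were below their PparA counterparts.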

How the results depend on the processing

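DESeq2 size factors and the summing of near-identical copies changed no call and no count of called genes by over 1.5 times, and a scaling by size factors moved the median of all genes by at most 0.0079 (log2). Without the filter on low counts, the number of genes called was 2 for diet averaged, in PparA and in WT, 1 for diet in PparD and in PparDA, 1 for the PparA minus WT diet response, 2 for PparA and for PparDA against WT on either diet, 1 for PparD against WT on either diet, 6 for Ppara-null and 1 for Ppard-fl/fl, and Gstp1 was not called among runs (adjusted p = 0.2); the cause was not tested. With runs 1 and 3 only, 0 genes were called for Ppara-null, 2 for Ppard-fl/fl and 0 for PparDA against WT on high-fat diet, and Gsta1 in PparA against WT on control diet reversed to -0.44 (log2). With runs 2 and 4 only, 1 gene was called for PparA and 0 for PparDA against WT on high-fat diet, and Cbr1 in PparD against WT on high-fat diet reversed to -0.28; these fits hold fewer libraries. DESeq2 called 1 gene for Ppard-fl/fl, and an edgeR fit of only the groups compared called 1 gene, Gsta1, for PparDA against WT on control diet (adjusted p = 0.035). Without the filter some edgeR adjusted p-values were smaller by many orders of magnitude, so calls of that fit are not comparable with the main ones. For Gsta1 with Ppara-null it was 5.7e-94, against 0.0019 in the main fit. For Txn1 with diet in WT it was 6e-12, against 0.56, whereas Gstp1 among runs went the other way. The counts in this paragraph stand without the share of all genes that each fit called. They show how calls moved with the processing and are no result about these genes as a group.

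Over fits that left out 1 library, the count was 3 to 5 for Ppara-null and 0 to 1 for Ppard-fl/fl. It was 0 to 1 for PparDA against WT on high-fat diet, 3 to 6 for differences among runs and 0 in each of the other 13 comparisons. These counts too stand without the share of all genes called in each fit, and are no result about these genes as a group.

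Column names give groups but no replicate number, and the run of library numbers stood in as the block. Deviations from group means correlated with a median of 0.153 over 112 same-run pairs of libraries; 84 pairs were over 0.1, the lowest was -0.035, and 31 of 32 libraries correlated best with their own run. As not every pair was over 0.1, the runs were not taken as pairs. Differences between runs, and between the sexes that went with them, therefore stayed in the spread of the main fit. With run as a replicate block in edgeR, 1 gene was called for Ppard-fl/fl (Txn1, 0.65, adjusted p = 0.011), against 2.45% of all genes. For Ppara-null 4 were called in place of 3, against 8.96% of all genes. The counts of other comparisons stayed the same.

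Depth limits low genes, as 3 counts were worth 4.02 to 4.94 CPM. In simulated counts for the averaged Ppara-null comparison (5872 genes) the test recovered 62% of 1.5-fold changes and 90% of 2-fold changes. It called 7 of 5672 unchanged genes. The changed genes, 50 per fold, were drawn from all tested genes, so recovery of low genes alone was not measured.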
